A study of Mus musculus with 21 samples.

Results

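The clustered protocadherins are neuronal cell surface proteins of the cadherin superfamily, encoded in mouse by the alpha, beta and gamma gene clusters that lie next to each other on chromosome 18. Members were found by symbol (Pcdha, Pcdhb or Pcdhg, an A, B or C type where there is one, and an isoform number), which gave 58 genes of 23614 in the deposited table for mice with both drivers and the same 58 of 22945 in the table for mice with the gg8 driver alone. There were 14 alpha, 22 beta and 22 gamma members. In RefSeq coordinates of build mm10 the alpha members spanned chr18:36930285-37188897 (259 kb), the beta members chr18:37264998-37521419 (256 kb) and the gamma members chr18:37661775-37841873 (180 kb).

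Each beta gene is a single exon with its own promoter. Each alpha and gamma isoform starts at its own promoter with a large variable exon, which codes for the extracellular and membrane part, and is spliced to constant exons that all isoforms of that cluster share and that code for the cytoplasmic end. Neurons choose a few of the variable promoters, a choice that depends on CTCF, cohesin and DNA methylation, whereas the C-type isoforms at the end of the alpha and gamma clusters are usually described as being expressed more evenly between neurons. The proteins bind like combinations on other membranes, and they are known in olfactory sensory neurons (OSN) for the sorting of axons on their way to glomeruli. Pcdhb1 and the C-type isoforms Pcdhac2, Pcdhgc4 and Pcdhgc5 are known to lack the sequence element found in nearly all other promoters of the clusters.

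The study measured RNA in 21 libraries of cells sorted from the main olfactory epithelium. All mice carried the gg8tTA driver, which is active in immature OSN, and a tetO transgene with HyperTRIBE, an RNA-editing domain, and mCherry. In the MexHT transgene (tetO-Mex3a_HyperTRIBE_mCherry) HyperTRIBE was fused to the RNA-binding protein Mex3a, while the HT transgene (tetO-HyperTRIBE_mCherry) held no Mex3a. Mice that also carried OMPtTA, which is active in mature OSN, gave 6 MexHT OSN libraries (mCherry-positive cells), 5 MexHT negative libraries (mCherry-negative cells, per the labels from the same mice), 3 HT OSN libraries and 3 HT negative libraries. Mice with gg8tTA alone gave 2 MexHT OSN and 2 MexHT negative libraries, here called gg8 OSN and gg8 negative. These were prepared under another date in the library names, so driver and date cannot be told apart. No HT mouse with gg8tTA alone and no mouse without HyperTRIBE was analysed here, and the labels used here give no ages. By design the MexHT transgene differs from the HT transgene by the added Mex3a. The mice differed in other ways too, such as the Xist level given below, so a difference between them need not come from Mex3a. No group shows the level in cells without a transgene.

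Values are deposited TPM, levels scaled for depth and feature length, so levels of different members are on the same scale. How reads shared by similar isoforms were counted is not given, so comparisons between members are approximate. The depth, recovered from the steps of the TPM values, was 7529642 to 15358078 counts a library, and a member had 5 to 5047 counts in a library, with a median of 110. Mex3a itself was at 328.5 to 1271 TPM in MexHT OSN and at 24.0 to 61.5 TPM in HT OSN. Sums of fixed markers differed between the groups: 10 mature OSN markers summed to 8947 to 13930 TPM in HT OSN, 2235 to 6515 in MexHT OSN, 5378 to 11130 in HT negative, 612.8 to 7195 in MexHT negative, 7928 and 13990 in gg8 negative and 325.1 and 803.0 in gg8 OSN libraries. Markers of mature OSN were thus high in the mCherry-negative fractions too, where 6 connective tissue and vessel markers summed to 5008 to 23290 TPM against 41.1 to 321.0 in the OSN fractions. No marker gene of these lists was at 0 throughout a group. Immune markers summed to 967.8 to 3934 TPM in HT OSN and 305.4 to 518.5 TPM in MexHT OSN. Xist was at 58.4 to 139.8 TPM in MexHT OSN but at 0.126, 60.3 and 0.140 TPM in HT OSN, so construct and Xist level were partly confounded. In these bulk samples fewer cells of a type and less RNA per cell cannot be told apart.

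All 3 clusters were broadly on in every kind of sample, and single isoforms set most of the contrast in level. In every library 57 or 58 of the 58 members reached 1 TPM, the only values under it being Pcdhb4 in MexHT negative replicate 5 (0.905 TPM) and Pcdhb13 in MexHT OSN replicate 4 (0.542 TPM). The alternate (not C-type) alpha isoforms had the narrowest span of the clusters in the 4 groups with both drivers, but not in gg8 OSN, where they had the widest (10.2-fold), nor in gg8 negative cells (5.62-fold, against 4.41-fold for alternate gamma isoforms). In HT OSN their means ran from 15.5 TPM for Pcdha8 to 42.1 for Pcdha12, a span of 2.72-fold. Alternate gamma isoforms spanned 4.36-fold there, from Pcdhga2 at 9.32 TPM to Pcdhga7 at 40.6. Beta isoforms other than Pcdhb1 spanned 7.93-fold, from Pcdhb15 at 3.88 TPM to Pcdhb17 at 30.8.

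Pcdhb1, the first gene of the beta cluster, stood far above these in HT mice. Its mean in HT OSN was 489 TPM ± 105 (SD, n = 3), 15.9 times that of the next beta isoform, Pcdhb17. It supplied 66.8% ± 1.56 (SD, n = 3) of the summed TPM of the beta cluster and 29.9% ± 3.5 of that of all 58 members. The share in HT negative cells was close to it, 65.8% ± 6.09 (n = 3) of the beta sum. In MexHT OSN it was 21.8% ± 2.49 (n = 6), with every library (18.7 to 24.5%) below every HT OSN library (65.0 to 67.9%). The MexHT negative mean of 42.3% lay in between, but its libraries were far apart, at 12.9 to 62.8%. The lowest of them, replicate 5, was below every MexHT OSN library. The gg8 mice parted by fraction, with 52.6 and 67.3% in gg8 negative and 15.0 and 7.10% in gg8 OSN.

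**Figure D1:**
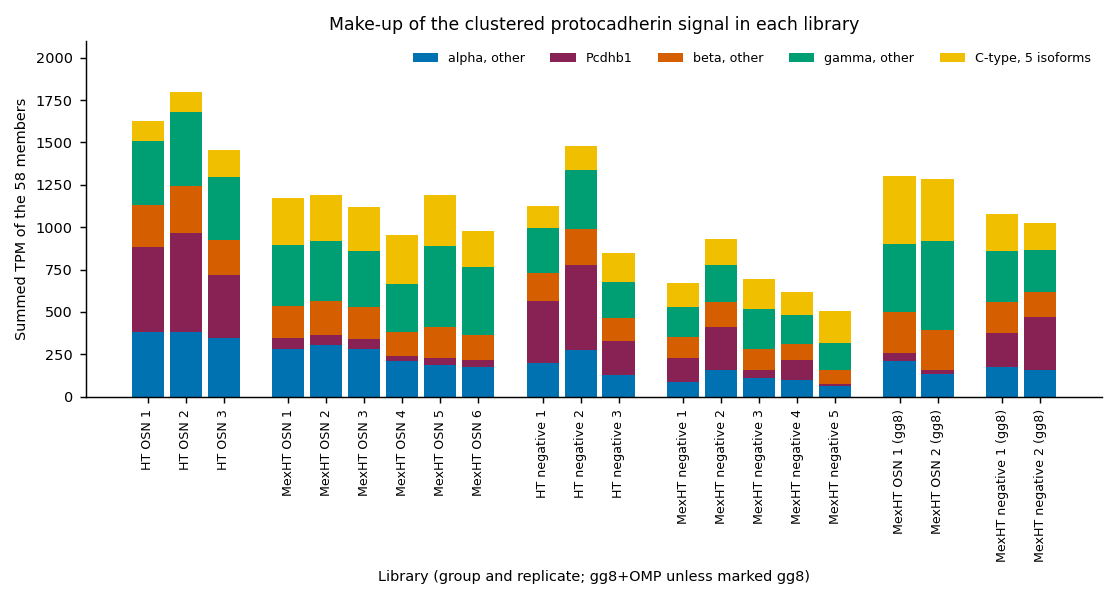
Summed TPM of the 58 members (y axis) in each of the 21 libraries (x axis), stacked by alternate alpha isoforms, Pcdhb1, the other beta isoforms, alternate gamma isoforms and the 5 C-type isoforms. Pcdhb1 is the tallest block in the HT OSN libraries (376.5 to 584.4 TPM) and a thin one in the MexHT OSN libraries (33.5 to 63.5 TPM), where the C-type block is taller than in HT OSN.

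Between the OSN groups with both drivers the C-type isoforms differed the other way. In MexHT OSN the 5 of them summed to 213.3 to 304.5 TPM, a mean of 24.6% of the total, and in HT OSN to 113.8 to 160.4 TPM, a mean of 8.30%, without overlap of the libraries. A high share was not particular to MexHT OSN. The mean was 24.5% in MexHT negative (16.1 to 37.8%) and 29.7% in gg8 OSN, against 13.6% in HT negative and 17.85% in gg8 negative. Less Pcdhb1 in the total also raises this share. The total of all 58 members was lower in MexHT OSN, 1101 TPM ± 106 (SD, n = 6) against 1626 ± 171 (n = 3), with no overlap. The beta sum without Pcdhb1 (175 against 241 TPM) and the alpha sum without its C types (239.5 against 367.5 TPM) were also lower in all MexHT OSN libraries, whereas the gamma sum without C types overlapped (366.7 ± 66.2 against 395.4 ± 38.4 TPM).

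The first comparison asked how the members differed between OSN with and without Mex3a on the transgene. Pcdhb1 was far lower in MexHT OSN, Pcdhgc3 and Pcdhgc4 were higher, most alternate alpha isoforms were lower and no alternate gamma isoform passed the test. In limma on log2(TPM + 1), adjusted over all 16067 genes tested, 15 of the 58 members (25.9%) passed an adjusted p of 0.05, 2 higher and 13 lower. Of all genes 36.8% passed (19.9% higher, 16.8% lower), so the members' share was below that of all genes. The median log2 difference was -0.64 for the alpha, -0.48 for the beta and -0.08 for the gamma cluster, against 0.03 over all genes.

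Pcdhb1 was at 506.6, 584.4 and 376.5 TPM in the HT OSN libraries and at 33.5 to 63.5 TPM, with a median of 49.4, in the 6 MexHT OSN libraries. Every MexHT OSN library was below every HT OSN library. The log2 difference was -3.29 (SE 0.22, limma adjusted p = 4.28e-05), 9.79-fold lower, and the 7th lowest among all 16067 genes. HT OSN replicate 2, the HT OSN library with Xist at 60.3 TPM, had the highest Pcdhb1 value. That library also had more genes at 1 TPM or more (18006) than the other HT OSN libraries (15843 and 16066). Construct and Xist level stay partly confounded, so their parts in the Pcdhb1 difference cannot be fully told apart. With the Xist level as a term in the fit Pcdhb1 passed, as given below. Under the 16 alternatives the difference stayed between -3.52 and -2.98, with an adjusted p of at most 0.0141.

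Pcdhgc3, the first C-type isoform of the gamma cluster and by mean level the highest of all gamma members, was at 38.2, 36.3 and 56.6 TPM in HT OSN and at 106.7 to 204.0 TPM, median 119.5, in MexHT OSN. All MexHT OSN libraries were higher, replicate 5 the most. The log2 difference was 1.58 (SE 0.21, limma adjusted p = 0.000588), a 2.99-fold rise. Pcdhgc4, the isoform known to be needed for the survival of neurons, was at 5.71, 5.19 and 8.74 TPM in HT OSN and at 7.72 to 20.7 TPM, median 15.4, in MexHT OSN. The groups overlapped through MexHT OSN replicate 6, and the log2 difference was 1.05 (SE 0.28, limma adjusted p = 0.0145).

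The other 3 C-type isoforms did not pass. Pcdhac2, the last alpha variable exon, had 2 levels in MexHT OSN: replicates 1 to 4 were at 101.8 to 133.5 TPM and replicates 5 and 6 at 57.5 and 47.1 TPM, which overlapped the 43.6 to 68.6 TPM of HT OSN (log2 difference 0.69, limma adjusted p = 0.109). Without MexHT OSN replicate 6 the difference passed, at 0.86 in limma. Pcdhgc5 was at 3.63 to 8.06 TPM against 2.72 to 3.63 TPM (log2 difference 0.65, limma adjusted p = 0.0521), and the ranges met without overlap. Pcdhac1 was at 15.4 to 30.9 TPM against 23.5 to 25.0 TPM (log2 difference -0.09, limma adjusted p = 0.768). MexHT OSN replicates 5 and 6 also had the lowest values of Pcdhac1, Pcdha2 and the alpha constant exons, and the highest of Mex3a (1271 and 678.8 TPM). Other members were lowest in replicate 4, with Mex3a at 332.2 TPM, among them Pcdha8 (4.871 TPM), Pcdha10 (14.28 TPM) and Pcdhb1 (33.55 TPM). Replicate 5 also had the lowest mature OSN marker sum of the group (2235 TPM). A link of these members with Mex3a was not tested.

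**Figure D2:**
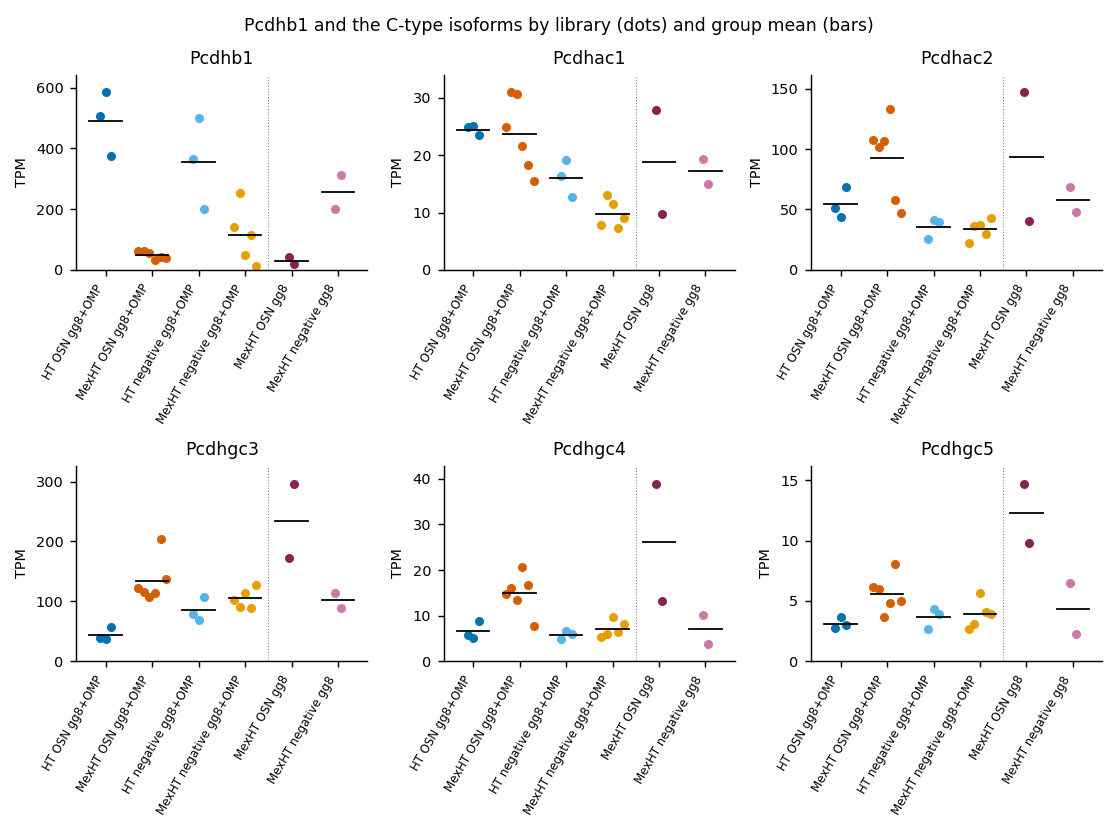
TPM of Pcdhb1 and the 5 C-type isoforms (y axes, from 0) in each library (dots) of the 6 groups (x axes), with group means as bars; the dotted line parts the separately scaled tables. Pcdhb1 was high in both HT groups and in gg8 negative cells, and Pcdhgc3 was lowest in the 3 HT OSN libraries (36.3 to 56.6 TPM).

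Of the 12 alternate alpha isoforms 8 fell (Pcdha1 to Pcdha5 and Pcdha10 to Pcdha12) and all 12 had negative differences, from -0.94 to -0.20. Pcdha2 was at 38.1 to 45.5 TPM in HT OSN and at 13.2 to 30.3 TPM, median 23.0, in MexHT OSN, without overlap (log2 difference -0.94, SE 0.27, limma adjusted p = 0.0204). Pcdha1 was at 12.9 to 21.9 TPM against 4.16 to 13.7 TPM, and its groups overlapped (log2 difference -0.91, limma adjusted p = 0.0370). The most abundant alternate alpha isoform in HT OSN, Pcdha12, was at 31.1 to 52.8 TPM against 17.7 to 35.4 TPM, with overlap (log2 difference -0.75, limma adjusted p = 0.0331).

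In the beta cluster 4 genes fell beside Pcdhb1, namely Pcdhb4, Pcdhb14, Pcdhb16 and Pcdhb20. Pcdhb14 was at 11.8 to 19.0 TPM in HT OSN and at 6.95 to 9.97 TPM in MexHT OSN, without overlap (log2 difference -0.89, SE 0.19, limma adjusted p = 0.00574). Pcdhb4 was a low gene, at 4.52 to 7.96 TPM against 1.88 to 4.79 TPM, with an overlap of the groups (log2 difference -0.89, limma adjusted p = 0.0274). Pcdhb17, the next beta isoform after Pcdhb1, was at 25.3 to 35.4 TPM against 19.4 to 29.6 TPM (log2 difference -0.34, limma adjusted p = 0.151). The 19 alternate gamma isoforms ran from -0.48 to 0.31 with none past the threshold, and 1 of them had groups without overlap (Pcdhga1, log2 difference -0.48, adjusted p = 0.0736). Over all 58 members 14 were below and 2 above in every MexHT OSN library, where 16.9% and 21.5% of all genes were.

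**Figure D3:**
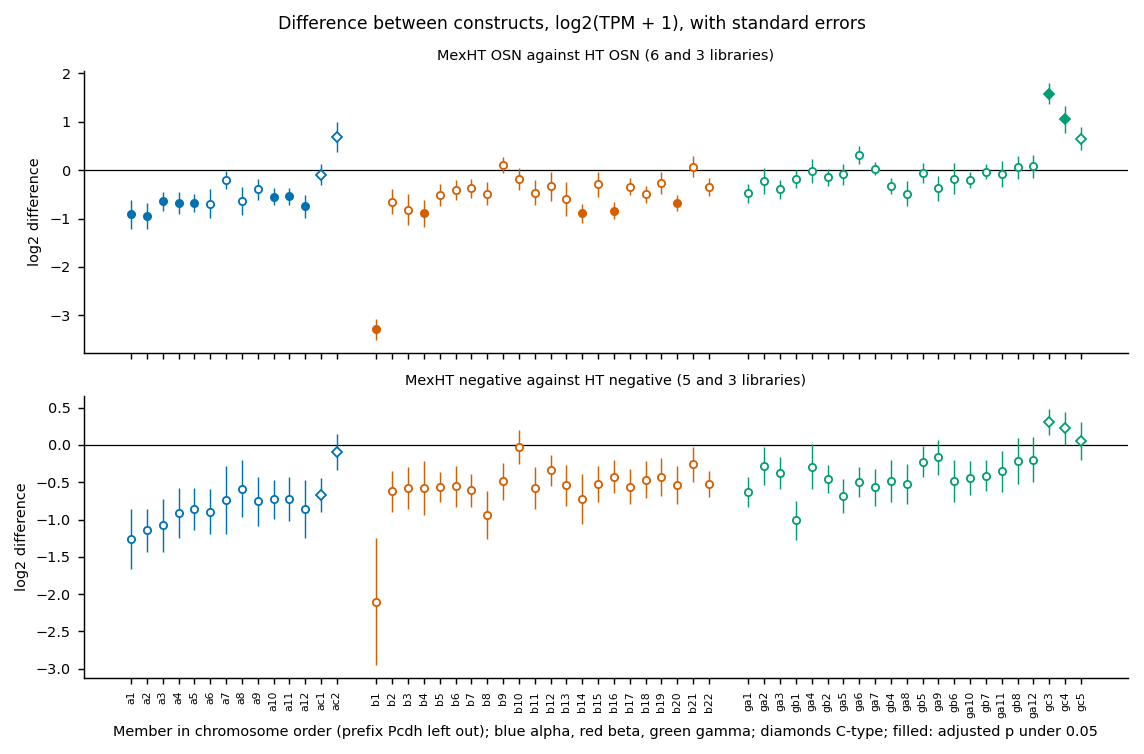
Log2 difference of each member (y axis, MexHT minus HT, with its standard error) in chromosome order (x axis), in OSN (top) and in mCherry-negative cells (bottom); filled symbols passed the limma test. In OSN Pcdhb1 lies at -3.29 and Pcdhgc3 at 1.58, and in mCherry-negative cells no symbol is filled.

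With the Xist level as a term in the fit 2 members passed, Pcdhb1 and Pcdhgc3, and the calls over all 16067 genes went from 5907 to 329. Without HT OSN replicate 1 there were 5 (Pcdhb1, Pcdhb14, Pcdhb16, Pcdhb20 and Pcdhgc3, none of the 8 alpha isoforms), without HT OSN replicate 2 also 5 (Pcdha3, Pcdhb1, Pcdhb14, Pcdhb16 and Pcdhgc3) and without MexHT OSN replicate 4 there were 9, where 3745, 3886 and 5236 of all genes passed. Beside these results, 9 of 10 mature OSN markers were lower and 6 of 8 immature OSN markers higher in MexHT OSN, and 5 of 7 immune markers were lower. Their part in the differences of the members was not tested.

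The constant exons, which the tables list apart from the isoforms as PcdhaCon and PcdhgCon and which are no members, gave a second reading of the alpha and gamma clusters. The lengths implied by the TPM steps (2319 to 5270 bases for members, 2860 for PcdhaCon and 2118 for PcdhgCon) show that an alpha or gamma isoform was counted over its variable part and the shared exons separately. PcdhgCon was at 185.0 to 214.4 TPM in HT OSN and at 268.1 to 359.3 TPM in MexHT OSN, without overlap (log2 difference 0.66, SE 0.11, limma adjusted p = 0.00191). The summed gamma variable exons did not follow in proportion: they were 2.30 ± 0.0609 times PcdhgCon in HT OSN (SD, n = 3) and 1.68 ± 0.191 times in MexHT OSN (n = 6), again without overlap. Variable sums above the shared constant exons mean that the readings do not count the same transcripts alike. The reason was not tested, so the shift of the ratio is a description only. PcdhaCon was at 213.6 to 262.2 TPM against 96.1 to 278.4 TPM (log2 difference -0.27, limma adjusted p = 0.566), with the 2 lowest values in MexHT OSN replicates 5 and 6.

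In mCherry-negative cells the same construct contrast gave no member past the threshold, and 0% of all 16860 genes passed in limma. At an unadjusted p under 0.05 there were 23 of 58 members and 3465 of 16860 genes, and limma-voom on recovered counts called 0 members as well. That unadjusted count of members was 9 with the replicate block (3311 genes), 4 without HT negative replicate 2 (1383 genes), 11 without HT negative replicate 1 (1585 genes), 15 without MexHT negative replicate 5 (2323 genes) and 37 without HT negative replicate 3 (5082 genes). The values leaned lower: 55 of 58 members had a negative difference, with medians of -0.81 for alpha, -0.55 for beta and -0.39 for gamma, against -0.01 over all genes. Pcdhb1 was at 366.1, 500.6 and 199.8 TPM in HT negative and at 142.4, 253.7, 49.2, 113.7 and 12.2 TPM in MexHT negative libraries. Its log2 difference was -2.11 (SE 0.85, limma adjusted p = 0.229), and MexHT negative replicate 2 overlapped the HT range. In 8 members all MexHT negative libraries were below all HT negative ones and in none above, where 5.07% of all genes were below (8.71% in either direction). Pcdhgc3 was at 68.97 to 106.7 TPM in HT negative and 89.5 to 127.4 TPM in MexHT negative cells (log2 difference 0.31, limma adjusted p = 0.318). No alternate alpha isoform reached a positive value (-1.26 to -0.59), and all 10 mature OSN markers were lower too, with none past the threshold.

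The next comparisons asked how OSN differed from the mCherry-negative cells of the same mice. In MexHT mice with both drivers the members rose together: 44 of 58 passed, all higher, with 14 of 14 alpha, 12 of 22 beta and 18 of 22 gamma members. This was 75.9% of the members, where 63.4% of all 16522 genes passed, 35.8% higher and 27.6% lower. The median log2 difference was 1.18 for alpha, 0.49 for beta and 0.78 for gamma, against 0.16 over all genes. A scaling by medians of ratios moved the median of all genes to 0.02 and left 37 members past the threshold, all higher. In 20 members all OSN libraries were above all negative libraries (23.4% of all genes), and in none were they all below (19.6%). Beside these results, 6 of 8 immature OSN markers rose and all 6 connective tissue and vessel markers fell in MexHT OSN, as 4 of those 6 did in HT OSN, and their part was not tested.

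Pcdhga7, the most abundant alternate gamma isoform, was at 10.3 to 22.2 TPM in the 5 MexHT negative libraries and at 37.6 to 52.8 TPM in the 6 MexHT OSN libraries. The groups were apart, and the log2 difference of 1.32 (SE 0.17, limma adjusted p = 2.71e-05) had the lowest adjusted p of the members. Pcdha7 was at 3.86 to 13.8 TPM against 18.6 to 31.0 TPM (log2 difference 1.53, limma adjusted p = 0.000160), the steepest rise. Pcdha3 (3.41 to 12.1 against 12.5 to 22.7 TPM, log2 difference 1.29) and Pcdhga6 (11.9 to 17.7 against 24.3 to 41.8 TPM, log2 difference 1.23) also had groups without overlap, with limma adjusted p of 0.000748 and 6.19e-05. PcdhgCon rose with its isoforms, from 147.1 to 167.8 TPM up to 268.1 to 359.3 TPM (log2 difference 0.92, limma adjusted p = 3.68e-06).

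The C-type isoforms were unlike each other here. Pcdhac1 (7.27 to 13.0 against 15.4 to 30.9 TPM, log2 difference 1.18, limma adjusted p = 0.000334) and Pcdhac2 (21.9 to 42.7 against 47.1 to 133.5 TPM, log2 difference 1.38, limma adjusted p = 0.000634) rose with the rest of the alpha cluster, both without overlap. Pcdhgc4 rose by a log2 difference of 0.94 (limma adjusted p = 0.00306). Pcdhgc3 was at 89.5 to 127.4 TPM in negative and 106.7 to 204.0 TPM in OSN libraries (log2 difference 0.32, limma adjusted p = 0.102), and Pcdhgc5 did not pass (log2 difference 0.44, limma adjusted p = 0.0882). Pcdhb1 was the single member with a negative difference, -0.65 (SE 0.59, limma adjusted p = 0.349), and MexHT negative replicate 5, at 12.2 TPM, was below every OSN library. Without that library the difference was -1.29 (limma adjusted p = 0.00878).

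**Figure D4:**
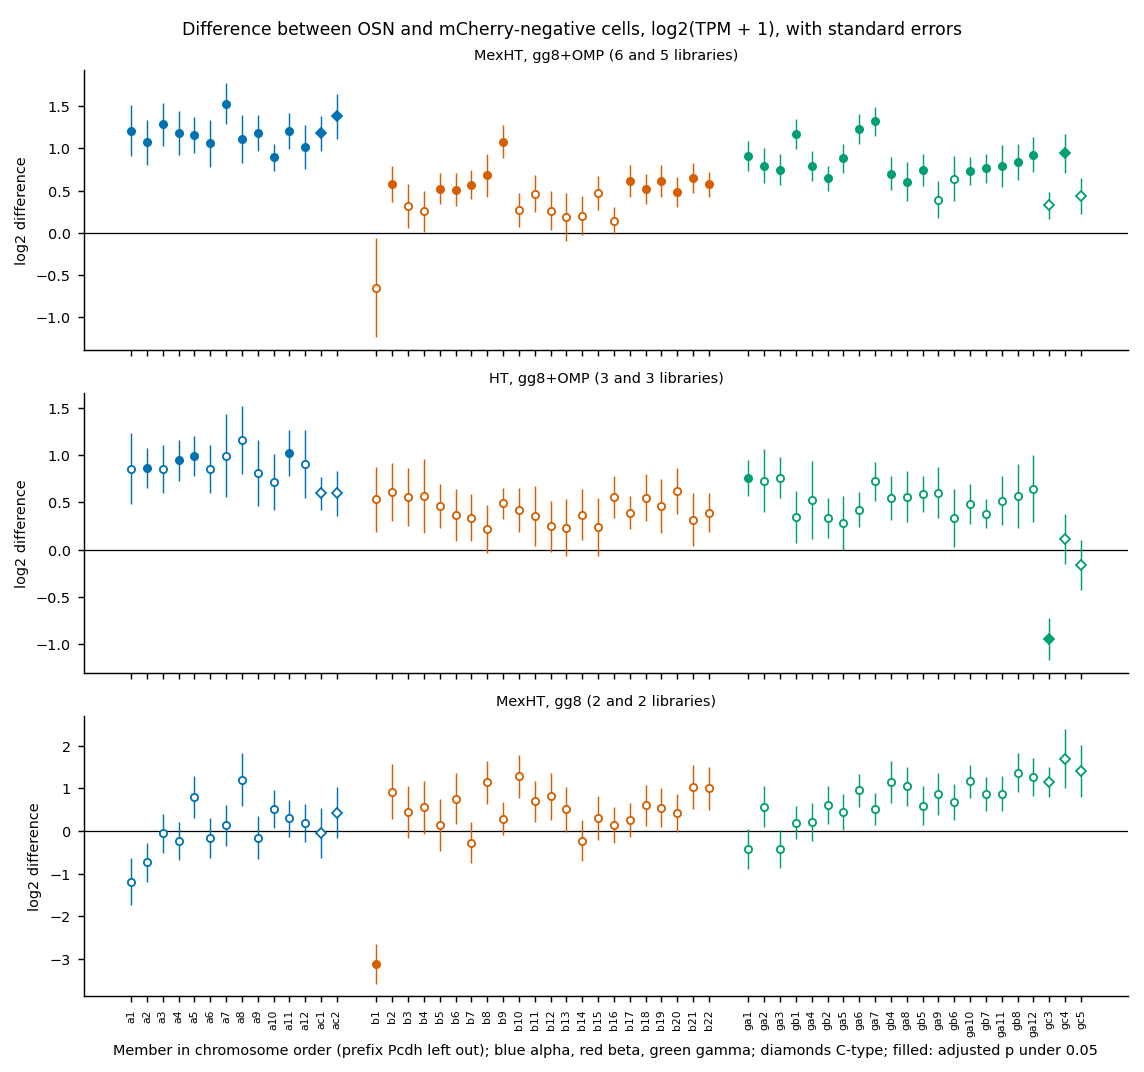
Log2 difference of each member between OSN and mCherry-negative cells (y axes, OSN minus negative, with standard errors) in chromosome order (x axis) for MexHT and HT mice with both drivers and for MexHT mice with gg8tTA alone; filled symbols passed the limma test. The alpha median exceeds the beta median in both upper plots (1.18 against 0.49 and 0.86 against 0.41), Pcdhgc3 is the low point of the HT plot (-0.95) and Pcdhb1 that of the gg8 plot (-3.11).

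In HT mice the direction was the same for most members and the test passed few. Higher in OSN were 56 of 58 members, with median log2 differences of 0.86 for alpha, 0.41 for beta and 0.52 for gamma, against 0.10 over all genes. With 3 libraries a group, 6 members (10.3%) passed in limma over 17027 genes: Pcdha2, Pcdha4, Pcdha5, Pcdha11 and Pcdhga1 rose and Pcdhgc3 fell, where 11.3% of all genes passed (2.18% higher, 9.11% lower). In 24 members all HT OSN libraries were above all HT negative ones and in 1 below, where 22.9% and 18.0% of all genes were (41.0% in either direction). With the mouse as a block, since each pair of fractions came from 1 animal, 19 members passed (18 higher, 1 lower), where 29.2% of all genes did (13.2% higher, 15.9% lower). The count without a block was 0 without HT OSN replicate 1, HT OSN replicate 2 or HT negative replicate 1, 1 without HT OSN replicate 3 or HT negative replicate 3, and 19 without HT negative replicate 2. Over all genes the 1923 calls were 797, 811, 660, 1351, 1183 and 4183 in that order of libraries.

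Pcdha5 was at 11.7, 17.9 and 10.8 TPM in HT negative and at 26.6, 26.6 and 28.1 TPM in HT OSN, with no overlap (log2 difference 0.99, SE 0.21, limma adjusted p = 0.0308). Pcdha4, Pcdha11, Pcdha2 and Pcdhga1 rose by log2 differences of 0.94, 1.02, 0.86 and 0.76, with limma adjusted p of 0.0392, 0.0420, 0.0493 and 0.0470. Pcdhgc3 was at 79.09, 68.97 and 106.7 TPM in HT negative and at 38.2, 36.3 and 56.6 TPM in HT OSN. In each mouse and in every library the OSN value was lower (log2 difference -0.95, SE 0.23, limma adjusted p = 0.0428). It kept this call with the mouse as a block and lost it in limma-voom, without the filter on low values, and without HT OSN replicate 1, HT OSN replicate 2, HT negative replicate 1 or HT negative replicate 3. Pcdhb1 was at 366.1, 500.6 and 199.8 TPM in HT negative against 506.6, 584.4 and 376.5 TPM in HT OSN, higher in OSN in each mouse by a log2 difference of 0.53 (limma adjusted p = 0.300, and 0.0464 with the mouse as a block). PcdhgCon was at 180.9 to 198.7 TPM in negative and 185.0 to 214.4 TPM in OSN libraries (log2 difference 0.03, limma adjusted p = 0.846, negative under 2 other scalings), so the summed variable exons moved from 1.94 to 2.30 times the constant exons.

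The difference between the constructs in this fraction contrast was tested itself, as an interaction over the 17 libraries. Pcdhgc3 was the single member past the threshold, at a log2 difference of differences of 1.27 (SE 0.29, limma adjusted p = 0.00984), where 12.4% of 16785 genes passed (7.05% higher, 5.37% lower). The mean OSN value of Pcdhgc3 was below the mean negative one in HT mice and not in MexHT mice. By mouse, MexHT replicate 3 had the lower value in OSN (106.7 against 113.5 TPM). PcdhgCon, no member, had 0.88 (limma adjusted p = 0.00168). Pcdhb1 had -1.19 (SE 0.90, limma adjusted p = 0.420), and all 5 C-type isoforms had positive values, from 0.58 to 1.27. With the mouse as a random block 3 members passed, Pcdhgc3, Pcdhga6 and Pcdhgb1, where 20.2% of all genes did (12.0% higher, 8.23% lower). Without MexHT negative replicate 2 or MexHT OSN replicate 4 Pcdhga6 passed beside Pcdhgc3 in the fit with no block, without MexHT OSN replicate 6 Pcdhgc4, and without HT negative replicate 3 Pcdhgb1.

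In mice with gg8tTA alone, where the sorted cells are labelled immature OSN, Pcdhb1 was again the member that set the groups apart. It was at 202.0 and 311.4 TPM in gg8 negative and at 43.1 and 18.2 TPM in gg8 OSN libraries. Both OSN values were lower, and the log2 difference was -3.11 (SE 0.46, limma adjusted p = 0.0241), 8.66-fold lower. No other member passed, where 8.32% of 16490 genes did (1.12% higher, 7.2% lower). The call was lost without gg8 negative replicate 1, gg8 negative replicate 2 or gg8 OSN replicate 2, with the difference between -3.71 and -2.51 when any of the 4 libraries was left out. In the 3 fits that lost the call 0 of all genes passed. Without gg8 OSN replicate 1 Pcdhgc3 passed beside it, among 3703 genes. Omp, the marker of mature OSN, was at 164.2 and 53.8 TPM in gg8 OSN and at 1937 and 3561 TPM in gg8 negative cells, and 9 of 10 mature OSN markers fell, so the negative fraction held most of the mature OSN signal here. Their part in the Pcdhb1 difference was not tested.

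The gamma cluster leaned the other way in gg8 mice, and did so with position. The beta cluster without Pcdhb1 also leaned that way, with a median log2 difference of 0.55 and positive values in 19 of 21 genes. Both OSN libraries were above both negative libraries in 19 of 22 gamma members and in 33 of all 58, and below in 6, where 33.5% and 30.2% of all genes were (63.6% in either direction), although no gamma member passed. The gamma median was 0.86, with the lowest values at the start of the cluster (Pcdhga1 -0.42, Pcdhga3 -0.41) and the highest at its end (Pcdhgc4 1.70, Pcdhgc5 1.4). Over the 22 members the difference rose with chromosome order (Spearman's rho 0.87, and 0.81 over the 19 alternate isoforms), a description over isoforms that share the same 4 libraries. In the alpha cluster, with a median of 0.04 and Pcdha1 lowest at -1.19, rho was 0.64 over 12 alternate isoforms. In the beta cluster without Pcdhb1 rho was 0.04 over 21 genes. The sign of the alpha median depended on the library: it was -0.35 without gg8 OSN replicate 1 and 0.45 without gg8 OSN replicate 2. The alpha sums of these 2 libraries were 386.8 and 186.4 TPM. Pcdhgc3 was at 114.2 and 89.0 TPM in gg8 negative and at 171.6 and 296.5 TPM in gg8 OSN (log2 difference 1.15, limma adjusted p = 0.0881). Pcdhac2 differed between the OSN libraries (146.9 and 40.4 TPM) more than between the groups, as did PcdhaCon (176.4 and 71.7 TPM), and gg8 OSN replicate 2, the lower of them, had the higher Mex3a level (1632 against 460.3 TPM). That library also had the lower mature OSN marker sum (325.1 against 803.0 TPM) and less Gng8 (663.9 against 1256 TPM). Its Xist level was higher (159.4 against 0.441 TPM), and fewer genes reached 1 TPM (13917 against 16398). A link with any of these was not tested.

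In MexHT OSN against HT OSN rho with chromosome order was 0.52 over the alternate alpha, 0.31 over the beta (without Pcdhb1) and 0.42 over the alternate gamma isoforms. In mCherry-negative cells of the same constructs the values were 0.78, 0.57 and 0.47. In the fraction contrasts with both drivers they were -0.34, 0.1 and -0.22 for MexHT and 0.11, -0.14 and -0.18 for HT mice. Isoforms share their libraries within a contrast, some contrasts share libraries too, and none of these values was tested.

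Across the 6 groups the mean Pcdhb1 level was highest in HT OSN (489 TPM ± 105, SD, n = 3), followed by HT negative (355.5 ± 150.7, n = 3), gg8 negative (202.0 and 311.4 TPM), MexHT negative (114 ± 93.4, n = 5), MexHT OSN (49.6 ± 12.4, n = 6) and gg8 OSN (43.1 and 18.2 TPM). The tables were scaled separately, so the place of the gg8 groups in this order is not tested. HT OSN and HT negative libraries overlapped, as did HT negative and MexHT negative, and MexHT negative and MexHT OSN. Set beside the 10 mature OSN markers, Pcdhb1 amounted to 3.64 to 4.38% of their sum in HT OSN, 3.58 to 4.5% in HT negative, 1.99 to 3.53% in MexHT negative, 2.23 and 2.55% in gg8 negative and 5.37 and 5.6% in gg8 OSN libraries, but to 0.691 to 1.89% in MexHT OSN. All 6 MexHT OSN libraries were below the libraries of every other group on this scale. MexHT OSN replicate 5 (1.89%) nearly met MexHT negative replicate 5 (1.99%). The share was highest in gg8 OSN, where the mean marker sum was lowest. MexHT OSN replicate 1, with a marker sum of 6515 TPM, had 61.0 TPM of Pcdhb1. MexHT negative replicate 1, at 5383 TPM of markers, had 142.4 TPM, and HT negative replicate 3, at 5378 TPM of markers, had 199.8 TPM. The part of mature OSN in the Pcdhb1 differences was not tested.

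**Figure D5:**
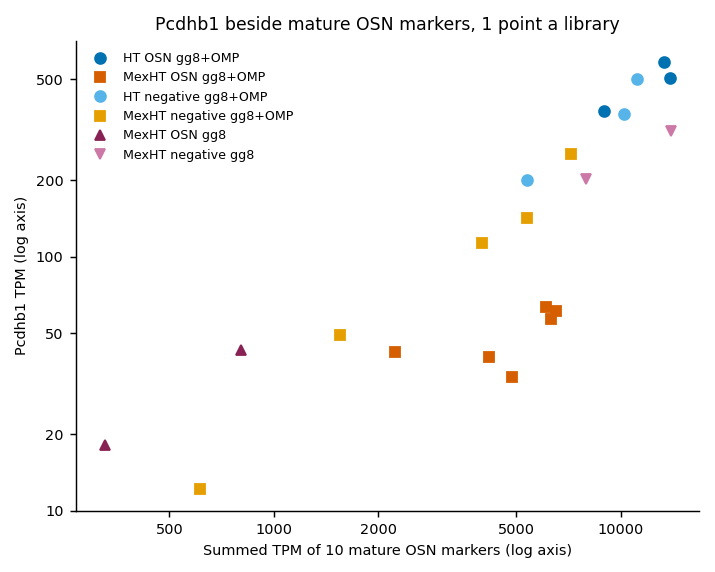
Pcdhb1 TPM (y axis, log) against the summed TPM of 10 mature OSN markers (x axis, log), 1 point a library, coloured by group. The 6 MexHT OSN libraries (33.5 to 63.5 TPM) lie below the libraries of other groups with a like marker sum. The part of mature OSN in this was not tested.

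Genes that act with the clustered protocadherins were read from fixed lists in MexHT OSN against HT OSN, where 36.8% of all genes passed (19.9% higher, 16.8% lower). The lists passed at shares near that background, so their counts set none of them apart. Of 21 chromatin genes known to set the state of the clusters 6 rose and 3 fell. Dnmt1, the maintenance DNA methyltransferase, rose by 0.92 (log2 difference, limma adjusted p = 0.00149), and Trim28, a corepressor, by 0.69 (0.0120). Dnmt3a, a de novo DNA methyltransferase, had -0.66 (0.00572) and the cohesin subunit Smc3 had 0.66 (0.00484), with limma adjusted p in brackets. Of 21 genes of protein processing and signalling partners 7 rose and 3 fell. The largest were the kinase Fyn (1.60, limma adjusted p = 0.000178), protein kinase C alpha or Prkca (1.08, 0.00283), the actin regulator Wasf1 (1.03, 0.000424) and Cyfip1 of the same WAVE complex (-0.93, 0.0443). Of 9 tested non-clustered protocadherins, which are single genes outside the 3 clusters, Pcdh18 (0.94, limma adjusted p = 0.0249) and Pcdh1 (0.42, 0.0192) rose and Pcdh19 (-1.25, 0.0119) and Pcdh8 (-1.16, 0.0131) fell.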

How the data were processed

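The authors deposited 2 tables of TPM, 1 for the 17 libraries with both drivers and 1 for the 4 gg8 libraries, scaled separately, so tests stayed within a table. Per the labels' protocols, libraries came from 10 ng of RNA with a stranded total RNA kit. Per the submitters' processing notes, FastQC, cutadapt, STAR, bedtools and mm10 were used; the counting program, the treatment of reads shared by similar isoforms and the use of strand are not given in the sources used here, so isoforms with near copies and antisense transcripts are uncertain. Rows with date-like symbols (27 a table) were left out of tests.

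Whole counts were recovered from the steps of the TPM values within a gene (tolerance 0.05 of a count). Of 23614 genes with both drivers, 23185 had a step. A step was accepted only where all values came out whole, so this number is no check of the method. With the steps of that table and a common factor, 22592 of 22601 genes in the gg8 table came out whole (12.45% with a wrong factor). The recovered counts gave the depth and an alternative test.

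Values were put on the scale log2(TPM + 1), and genes averaging under 1 TPM in the groups compared were left out. The test was limma 3.58.1 (R 4.3.3, with a trend on the mean), two-sided, with Benjamini-Hochberg adjustment over all genes and a threshold of 0.05. A pseudocount of 1 understates the change of low genes. The method was tested on simulated data. Named members were Pcdhb1, the C types, members past the threshold (the 5 largest each way if over 10) and the 2 most abundant of each cluster. Pcdhb13, Pcdhb15, Pcdhb16, Pcdhb20, Pcdhga2, Pcdhgb1 and members that head or end a range were named after their values were seen, as were PcdhaCon and PcdhgCon. The members and all lists were chosen with earlier results of these data known.

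Per the labels, same-numbered OSN and negative libraries share a mouse. Their deviations from the group means correlated by 0.174, 0.3 and 0.475 in HT mice, by 0.185, 0.279, -0.109, 0.095 and 0.421 in MexHT mice and by 0.018 in both gg8 pairs, so the pairing rests on the labels. The labels do not say more of how replicates were taken. Same-numbered libraries of the 2 constructs deviated together in mCherry-negative cells (correlations 0.337, 0.418 and 0.231) and not in OSN (0.115, 0.132 and -0.228). Alternatives were a pseudocount of 0.5, no filter, median-of-ratios scaling, limma-voom on recovered counts, all groups in 1 fit, the Xist level or a replicate block as a term, and leaving out each library. Figures were drawn with matplotlib 3.10.9.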

Additional observations from a re-analysis of the deposited data

Results flagged for a closer look

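In 4 of 52 groups of values examined, 1 library stood apart from the others of its group by its gap over the group's range, which chance does in about 1 in 20 groups. Pcdhgc3 was at 204.0 TPM in MexHT OSN replicate 5, the highest of its group (gap over range 0.677). Pcdhga7 was at 52.83 TPM in MexHT OSN replicate 6 (0.688), and Pcdha5 at 12.19 TPM in MexHT negative replicate 2 (0.862), both the highest of their groups. PcdhgCon was at 147.1 TPM in MexHT negative replicate 4, the lowest of its group (0.87).

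The contrast of OSN with mCherry-negative cells differed between the constructs for Pcdhgc3 (log2 difference of differences 1.27, limma adjusted p = 0.00984) and for PcdhgCon (0.88, limma adjusted p = 0.00168). Pcdhgc3 had its 3 lowest values among the 17 libraries with both drivers in HT OSN.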

How the results depend on the processing

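For MexHT OSN against HT OSN the count of 15 members was 9 with a replicate block, 2 with the Xist level as a term, and 5 to 17 when a library was left out. Over all genes the 5907 calls were 4801, 329 and 3745 to 6506 in the same fits. The numbers do not pair these mice. For HT OSN against HT negative the count of 6 was 2 without the filter, 1 in limma-voom, 19 with the replicate block and 0 to 19 when a library was left out (all genes: 1923, then 1583, 1054, 4967 and 660 to 4183). The interaction count of 1 was 3 with the replicate block and 1 to 2 when a library was left out (all genes: 2086, then 3398 and 1195 to 2483). The gg8 count of 1 was 0 to 2 when a library was left out (all genes: 1372, then 0 to 3703). The other counts of members past the adjusted threshold stayed within 1.5 times, the replicate block included. The 23 members at an unadjusted p under 0.05 in limma in mCherry-negative cells were 9 with the replicate block and 41 with the Xist term. They were 4 to 37 when a library was left out. Over all genes the 3465 at that level were 3311, 4046 and 1383 to 5082 in the same fits. The cause of these changes was not tested, beyond the loss of a library.

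The share of higher calls among all genes in the interaction moved from 56.8% to 38.4% under median-of-ratios scaling. Of 1023 alternative values of 69 single results, 881 kept direction and side of the threshold, 106 lost a call, 17 gained 1 and 19 changed sign, none of them past the threshold. With a replicate block Pcdhac1 (0.22) and PcdhaCon (0.18) turned positive in MexHT OSN against HT OSN. In mCherry-negative cells Pcdhgc4 (-0.03) and Pcdhgc5 (-0.27) turned negative with the Xist term. For Pcdhgc4, HT OSN against HT negative, the sign (-0.0035) turned in limma-voom, and PcdhgCon under median-of-ratios scaling (-0.04) and limma-voom (-0.06). When a library was left out, signs turned within -0.17 to 0.02 (Pcdhac1, OSN), -0.76 to 0.67 (Pcdhac1, gg8), -0.30 to 0.04 (Pcdhac2, negative), -0.49 to 1.35 (Pcdhac2, gg8), -0.08 to 0.24 (Pcdhgc4, HT), -0.10 to 0.15 (Pcdhgc5, negative), -1.21 to 0.08 (PcdhaCon, gg8) and -0.04 to 0.07 (PcdhgCon, HT).

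Low beta isoforms rest on as few as 5 counts a library, and 2 or 3 libraries in the smaller group limit the precision.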
